A study of Mus musculus with 6 samples.

Results

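The 10 genes followed here carry or restrain the transforming growth factor beta (TGF-beta) signal from the cell surface to the nucleus: the receptors Tgfbr1, Tgfbr2 and Tgfbr3, the signal-carrying Smads Smad2, Smad3 and Smad4, and the inhibitors and repressors Smad7, Ski, Skil and Smurf2. They were picked for their place in the pathway, by their symbols, and all 10 were among the 13709 genes of the count table and among the 13594 genes tested. Bulk RNA-Seq of CD4+YFP+CD25+ regulatory T cells (Tregs) had been done on 3 WT and 3 KO samples of C57BL/6 mice. WT mice carried Foxp3Cre alone and KO mice carried Foxp3Cre with Zfp335 fl/fl, so both groups had the YFP-iCre cassette that is made from the Foxp3 locus, and deletion in KO mice was limited to cells that turn on Foxp3. The mice were 2 weeks old per the study's methods, and the labels named both spleen and lymph nodes as the source. Whether a sample was 1 mouse or a pool was not stated, so p-values measure the spread between these samples, which may be technical. KO mice develop an early lethal inflammation, and this difference in surroundings cannot be told apart from the loss of Zfp335.

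TGF-beta is a secreted cytokine that is held in a latent complex until integrins or proteases release it. The free ligand binds the type II receptor Tgfbr2, which phosphorylates the type I receptor Tgfbr1. The type I receptor then phosphorylates Smad2 and Smad3, which pair with Smad4 and enter the nucleus. Tgfbr3, also called betaglycan, is a co-receptor that presents ligand. Smad7 competes at the type I receptor and brings in ubiquitin ligases such as Smurf2, while Ski and Skil (SnoN) hold Smads on DNA in a repressed state. In T cells the pathway restrains effector programs and helps to induce and keep Foxp3.

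In Zfp335-deficient Tregs 4 of the 10 genes fell, 2 rose and 4 did not pass the cutoffs. The 4 that fell were Tgfbr1, Smad7, Ski and Skil, each to between 46.2% and 52.7% of its WT level, and the 2 that rose were Smad3 and Tgfbr3, to 163% and 159%. To be called, a gene needed p under 0.05, adjusted p under 0.1 and a change of more than 1.5-fold, by the quasi-likelihood test of edgeR with Benjamini-Hochberg adjustment over all genes tested. These cutoffs called 24.4% of all genes tested, 11.9% as higher and 12.5% as lower in KO Tregs. The KO and WT samples did not overlap for 8 of the 10 genes, 2 higher and 6 lower, beside 53.8% of all genes tested. The median log2 fold change of the 10 was -0.35 and that of all genes tested was -0.04. No test was made of the 10 genes as a group, which were chosen with earlier results of these data known.

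To show the stretch just before the transcription start of the called genes, 3 promoters from RefSeq (GRCm38.p6, the assembly that mm10 denotes) are printed as the 250 bases before the start, 5′ to 3′ on the strand of the gene. Capitals mark the GC box GGGCGG, or its reverse complement. They are the called genes that had a promoter entry, of which Tgfbr1 and Ski went down and Smad3 went up.
Tgfbr1, chr4:47352972-47353221, plus strand: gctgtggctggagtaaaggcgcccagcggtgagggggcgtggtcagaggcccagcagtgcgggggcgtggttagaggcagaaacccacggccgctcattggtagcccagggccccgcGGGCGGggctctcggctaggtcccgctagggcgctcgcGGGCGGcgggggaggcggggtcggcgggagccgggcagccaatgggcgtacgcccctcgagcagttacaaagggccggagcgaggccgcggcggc
Ski, chr4:155222536-155222785, minus strand: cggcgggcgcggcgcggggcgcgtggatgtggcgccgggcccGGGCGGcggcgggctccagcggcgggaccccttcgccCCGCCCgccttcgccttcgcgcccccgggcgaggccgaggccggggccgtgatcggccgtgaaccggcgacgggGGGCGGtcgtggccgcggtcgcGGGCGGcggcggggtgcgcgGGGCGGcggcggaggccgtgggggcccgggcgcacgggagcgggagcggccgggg
Smad3, chr9:63757995-63758244, minus strand: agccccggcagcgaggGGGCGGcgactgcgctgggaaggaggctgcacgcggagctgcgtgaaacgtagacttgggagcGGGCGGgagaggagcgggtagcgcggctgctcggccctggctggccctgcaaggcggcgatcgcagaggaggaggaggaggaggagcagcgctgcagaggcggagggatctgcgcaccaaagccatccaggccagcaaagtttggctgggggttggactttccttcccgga

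The 3 windows were rich in G and C, at 74.8% for Tgfbr1, 87.6% for Ski and 69.2% for Smad3, beside a median of 52.4% over 32851 promoters of the same length. Tgfbr1 held 2 GC boxes, Ski 5 and Smad3 2, and 32.7% of all promoters held at least 1. Also searched on both strands were the long Smad box CAGACA, the Smad palindrome GTCTAGAC, the TATA box TATAAA and the Ets core CCGGAA. None of them lay in these 3 windows, and shorter Smad sites were not searched. Among all promoters these 4 motifs were held by 17.1%, 0.167%, 12.4% and 12.0%. A second annotated start of Tgfbr1, with the window chr4:47385966-47386215, held 1 CAGACA. Of the 10 genes 5 had a promoter entry, and those of Tgfbr2 and Smurf2 are not printed because these genes were not called. The counts are per gene and do not tell which start was used.

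**Figure D1:**
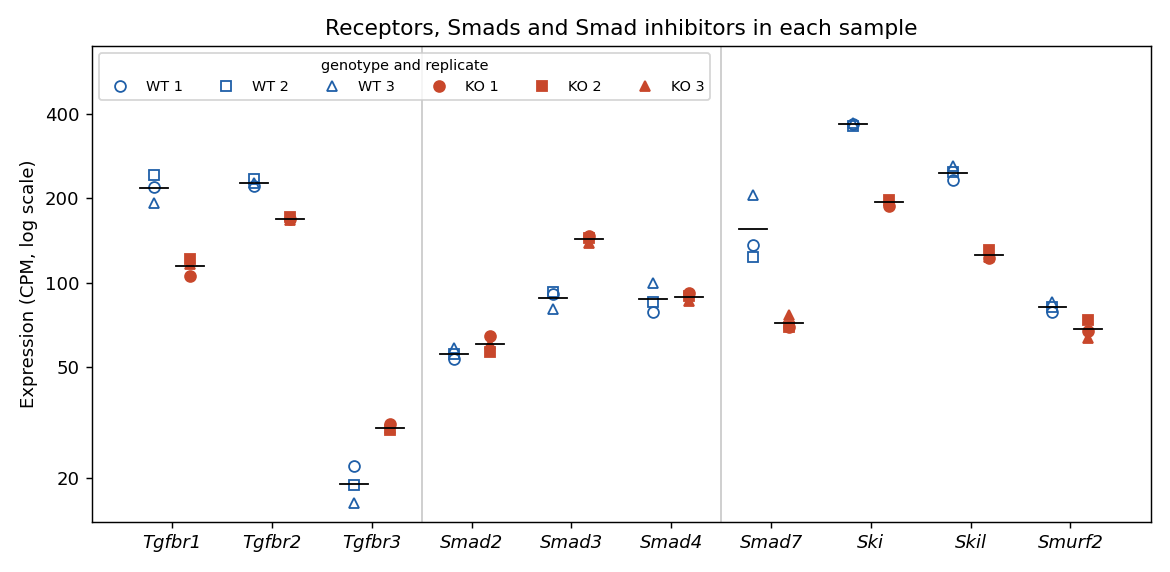
Expression of the 10 genes in CPM (log scale) in each sample, with open blue symbols for WT, filled red symbols for KO, the shape for the replicate number and a black line for the mean of 3 samples. The genotypes overlap only in Smad2 and Smad4, and WT replicate 3 lies apart from the other WT samples in Smad7, at 205 CPM.

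The receptors moved in different directions. CPM here means counts scaled to library totals after TMM adjustment, a trimmed-mean scaling between libraries. Tgfbr1, the kinase that phosphorylates Smad2 and Smad3 (chr4:47353222-47414926), was at 219, 242 and 192 CPM in WT replicates 1 to 3 and at 105, 121 and 117 CPM in KO replicates 1 to 3. No KO sample reached the lowest WT sample. The mean fell from 217.7 ± 24.9 to 114.5 ± 8.19 CPM (SD, n = 3 each), with a log2 fold change of -0.93 (SE 0.10, 95% confidence interval -1.16 to -0.69, edgeR adjusted p = 0.000421). The study showed Tgfbr1 as a Treg signature gene on these same samples, so its change here is not independent evidence. In bulk RNA, fewer cells of a type and less RNA per cell cannot be told apart.

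Tgfbr2, the receptor that binds ligand first (chr9:116087695-116175363), was at 222, 235 and 226 CPM in WT and at 168, 171 and 168 CPM in KO samples. The groups were tight and did not overlap. The mean was 227.7 ± 6.69 CPM in WT Tregs beside 169.1 ± 1.95 CPM in KO Tregs. The log2 fold change was -0.43 (95% confidence interval -0.57 to -0.29, edgeR adjusted p = 0.00127), under the fold cutoff, so Tgfbr2 was not called. KO Tregs held 74.3% of the WT level of Tgfbr2 and 52.6% of that of Tgfbr1.

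Tgfbr3, the co-receptor (chr5:107106567-107289629), was the least expressed of the receptors, at 22.1, 18.9 and 16.3 CPM in WT and at 31.1, 29.7 and 30.2 CPM in KO samples. It rose from 19.1 ± 2.88 to 30.4 ± 0.735 CPM (edgeR adjusted p = 0.00396), which is 0.67 on the log2 scale with an SE of 0.12. WT replicate 3 was the lowest sample, and leaving it out gave 0.56 (adjusted p = 0.000222), which is under the fold cutoff, so the call was lost. Against a fold of 1.5 as the null (glmTreat) it was not called either, at an adjusted p of 0.471.

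Of the Smads that carry the signal, only Smad3 passed the cutoffs. Smad3 (chr9:63646766-63757994) was at 91.0, 92.4 and 80.2 CPM in WT and at 146, 144 and 138 CPM in KO samples. Its groups were far apart, and the mean rose from 87.9 ± 6.67 to 143 ± 4.09 CPM (edgeR adjusted p = 0.000401). That is 0.70 on the log2 scale, with an SE of 0.07 and a 95% confidence interval of 0.53 to 0.88. The lower end of that interval is below a fold of 1.5, and glmTreat against that fold gave an adjusted p of 0.159, so Smad3 was not called by it.

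Smad2, the other Smad that Tgfbr1 phosphorylates (chr18:76241090-76311748), was at 53.4, 55.7 and 58.2 CPM in WT and at 64.4, 56.7 and 60.5 CPM in KO samples. The groups overlapped, with a log2 fold change of 0.12 (95% confidence interval -0.06 to 0.30, edgeR adjusted p = 0.272). Smad4, the shared partner (chr18:73634790-73703791), was at 78.3, 85.2 and 99.4 CPM in WT and at 91.5, 89.5 and 86.2 CPM in KO samples. The KO samples all lay within the WT range, and the log2 fold change was 0.02 (95% confidence interval -0.20 to 0.24, edgeR adjusted p = 0.870). The intervals of both genes leave out a change of 1.5-fold in either direction.

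Of the 4 inhibitors and repressors 3 fell. Ski (chr4:155154075-155222535) was at 367, 361 and 372 CPM in WT and at 188, 197 and 195 CPM in KO samples. Its spread was small in both groups, and the mean fell from 366.9 ± 5.70 to 193.4 ± 4.47 CPM (edgeR adjusted p = 4.63e-05), a change of -0.92 on the log2 scale with an SE of 0.06. Skil, its relative (chr3:31095058-31122923), was at 232, 247 and 261 CPM in WT and at 123, 131 and 124 CPM in KO samples. It fell from 246.8 ± 14.6 to 125.9 ± 4.58 CPM (edgeR adjusted p = 7.75e-05), a change of -0.97 on the log2 scale with an SE of 0.07. Ski and Skil thus each stood near the same share of their WT level, 52.7% and 51.0%.

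Smad7, the inhibitory Smad and itself a gene that TGF-beta turns on (chr18:75367365-75395935), was at 136, 124 and 205 CPM in WT and at 69.4, 69.2 and 76.4 CPM in KO samples. WT replicate 3 was far above the other WT samples, and even the lowest WT sample was above every KO sample. The mean fell from 155 ± 44.1 to 71.7 ± 4.07 CPM (edgeR adjusted p = 0.00231). On the log2 scale the change was -1.11 (SE 0.18, 95% confidence interval -1.53 to -0.70), and -0.86, still called, when WT replicate 3 was left out. Smurf2, a ubiquitin ligase that Smad7 brings to the receptor (chr11:106820061-106920747), was at 78.7, 81.8 and 85.1 CPM in WT and at 67.2, 73.7 and 63.1 CPM in KO samples. The groups did not overlap, but the log2 fold change of -0.27 (edgeR adjusted p = 0.0310) was under the fold cutoff.

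**Figure D2:**
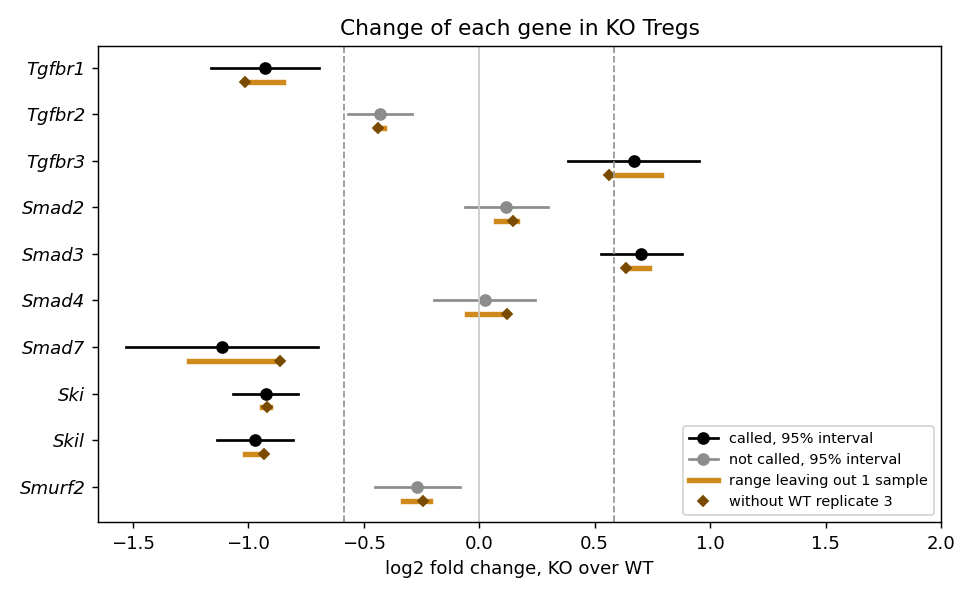
Log2 fold change of each gene in KO over WT Tregs (points) with its 95% confidence interval (lines, black where called), the range of the fold change when 1 sample is left out (orange bars) and the value without WT replicate 3 (brown diamonds). Dashed lines mark a fold of 1.5. Tgfbr1, Smad7, Ski and Skil lie beyond the left line, while leaving out WT replicate 3 moves Tgfbr3 inside the right line, to 0.56.

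Of the 6 called genes, 4 lie over a long noncoding RNA or pseudogene in RefSeq whose reads could have been counted with them, since the use of strand in the counting is not given in the sources used here. These are Gm32435 at Tgfbr1, Gm51710 at Smad3, Gm41776 at Smad7 and the pseudogene Gm8145 at Tgfbr3. Gm31292 likewise lies at Tgfbr2. No other annotated gene overlaps Smad2, Smad4, Ski, Skil or Smurf2.

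To compare levels between genes, CPM was divided by the length of all exons of the gene in kilobases. In WT Tregs Ski stood highest, at 66.0 ± 1.03 CPM per kilobase. Next came Smad7 at 34.3 ± 9.75 and Tgfbr1 at 33.3 ± 3.81, whose samples overlapped, and then Tgfbr2 at 27.8 ± 0.817, Skil at 25.5 ± 1.503 and Smad4 at 23.6 ± 2.90 CPM per kilobase. Skil and Smad4 overlapped, and so did Smad7 and Tgfbr2. Below them Smad3 stood at 15.9 ± 1.20, Smurf2 at 13.3 ± 0.522, Smad2 at 6.35 ± 0.271 and Tgfbr3 at 2.92 ± 0.440 CPM per kilobase, with no overlap between neighbors.

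In KO Tregs Ski was still the highest, at 34.8 ± 0.803 CPM per kilobase. Smad3 moved from rank 7 to rank 2, at 25.8 ± 0.738, and Smad4 to rank 3, at 24.0 ± 0.723 CPM per kilobase. Tgfbr2 at 20.6 ± 0.238 now stood above Tgfbr1 at 17.5 ± 1.25 and Smad7 at 15.9 ± 0.899 CPM per kilobase, and these last 2 overlapped. Skil followed at 13.0 ± 0.472, Smurf2 at 11.0 ± 0.866, Smad2 at 6.89 ± 0.440 and Tgfbr3 at 4.64 ± 0.112 CPM per kilobase. With the longest transcript in place of all exons the WT order of ranks 2 to 5 became Tgfbr1, Skil, Smad7 and Tgfbr2, and in KO Tregs Skil stood above Smad7, at 18.7 and 16.8 CPM per kilobase, so the order among these genes rests on the length used.

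Ratios within a sample show how the genes moved against each other, and the length cancels from their change. A total of 4 ratios were computed, and an exact permutation test of 3 against 3 samples, two-sided, cannot go below p = 0.10. The ratio of Tgfbr1 to Tgfbr2 was 1.24, 1.29 and 1.06 in WT and 0.785, 0.888 and 0.871 in KO samples (exact p = 0.10, adjusted p = 0.20). The groups did not overlap, and the type I receptor went from above to below the type II receptor per kilobase. The ratio of Smad3 to Smad2 was 2.70, 2.63 and 2.19 in WT and 3.60, 4.03 and 3.62 in KO samples (exact p = 0.10, adjusted p = 0.20), again without overlap.

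The repressors kept a similar ratio, with Ski over Skil at 2.76, 2.54 and 2.49 in WT and at 2.68, 2.61 and 2.75 in KO samples (exact p = 0.50, adjusted p = 0.667). The ratio of Smad7 to Tgfbr1 was 0.897, 0.739 and 1.54 in WT and 0.951, 0.824 and 0.947 in KO samples (exact p = 0.90). The KO samples lay inside the WT range in that ratio, which WT replicate 3 stretched. With 3 samples a group these p-values do not show that the ratios were alike.

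**Figure D3:**
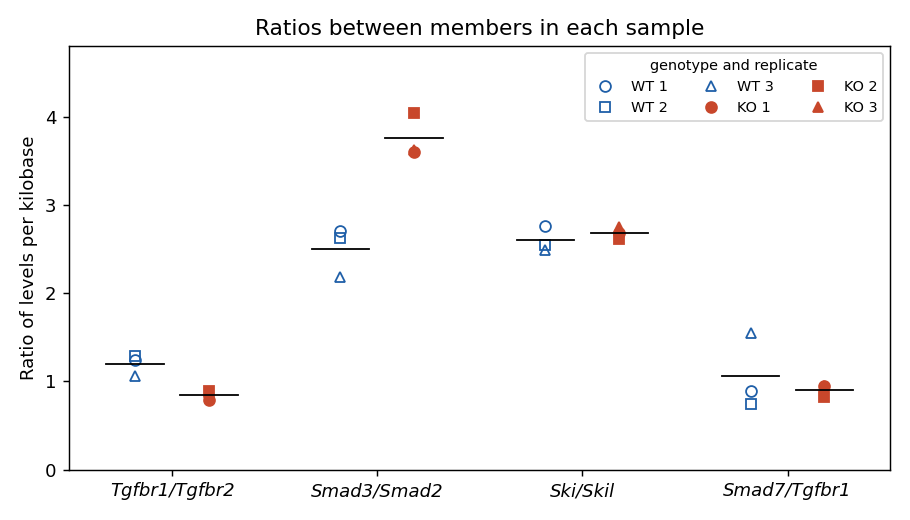
Ratio of levels per kilobase for 4 pairs of genes in each sample, with open blue symbols for WT, filled red symbols for KO and black lines for means of 3 samples. The genotypes separate in Tgfbr1/Tgfbr2 and in Smad3/Smad2 and overlap in Ski/Skil and Smad7/Tgfbr1.

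Of 55 other genes of the pathway, 52 were in the table and all 52 were tested. Of these, 5 were called higher, 5 lower and 42 were not called, with a median log2 fold change of -0.07. Over all genes tested 11.9% were called higher and 12.5% lower, a larger share than among these 52. Without WT replicate 3, 7 were called higher and 6 lower, with a median of 0.12, where 26.8% of all genes were called. Most calls were among ligands and the proteins that hold or free them, with 3 higher and 3 lower of 13. Tgfb3, a ligand, rose from 2.92 ± 1.34 to 13.7 ± 1.02 CPM (log2 fold change 2.23, edgeR adjusted p = 0.00129). Furin, the protease that cuts the TGF-beta precursor, rose from 142 ± 23.3 to 314 ± 3.66 CPM, by 1.15 on the log2 scale. Tgfb1, the main ligand of Tregs, was not called, at 249 ± 18.5 CPM in WT Tregs beside 220 ± 25.0 CPM in KO Tregs (log2 fold change -0.18, edgeR adjusted p = 0.207).

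Itgb8, the integrin chain that frees latent TGF-beta at the Treg surface, was at 46.0, 50.1 and 61.1 CPM in WT and at 7.34, 9.21 and 6.92 CPM in KO samples. It had the largest fall among these 52 genes, with a log2 fold change of -2.74 (edgeR adjusted p = 2.74e-05). Nrp1, a surface protein of Tregs that can bind TGF-beta, fell from 166.5 ± 11.8 to 75.5 ± 5.87 CPM (log2 fold change -1.14). The study listed Nrp1 among lowered Treg signature genes on these same samples, so this fall is not independent evidence. Tgfb2 and Ltbp1, the remaining called genes of this role, were under 5 CPM in both genotypes. Lrrc32 (GARP), which docks latent TGF-beta on Tregs, had a log2 fold change of -0.40 and was not called.

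Among 9 other receptors of the family, Acvr1 rose from 3.13 ± 0.772 to 6.30 ± 0.150 CPM and Acvr1b, an activin receptor that signals through Smad2 and Smad3, fell from 44.9 ± 8.43 to 27.5 ± 1.504 CPM, and the other 7 were not called. The log2 fold changes were 1.01 and -0.70, and glmTreat called neither. Smad5, a Smad of the bone morphogenetic protein branch, stood at 62.9 ± 3.08 CPM in WT Tregs beside 48.8 ± 1.68 CPM in KO Tregs (log2 fold change -0.36, edgeR adjusted p = 0.00625, under the fold cutoff). Smad1 was not called, and Smad6 and Smad9 were not in the count table and so were not tested.

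Of 11 adaptors and regulators of the receptors 1 was called. Ldlrad4, a membrane protein that limits TGF-beta signaling, was at 67.8, 71.1 and 58.0 CPM in WT and at 12.2, 12.7 and 14.4 CPM in KO samples. These groups were far apart, with a log2 fold change of -2.32 (edgeR adjusted p = 1.52e-05). Its relative Pmepa1 had a log2 fold change of -0.55 (edgeR adjusted p = 0.00388), just under the fold cutoff, and was called when library totals alone were used, without WT replicate 1 and without KO replicate 2 (-0.59, -0.59 and -0.64).

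Of 10 ubiquitin enzymes and phosphatases Uchl5, a deubiquitinase, rose from 26.8 ± 4.46 to 48.8 ± 2.43 CPM (log2 fold change 0.87) and the other 9 were not called. None of the 7 nuclear partners was called by edgeR or by DESeq2. Only 1 of them, Hdac1, had an unadjusted p under 0.05 in edgeR. Its adjusted p was 0.0440, and its log2 fold change of -0.25 was under the fold cutoff. Tgif1, a corepressor of Smads, was at 51.7, 53.4 and 151 CPM in WT and at 48.8, 51.1 and 46.4 CPM in KO samples. Its log2 fold change of -0.81 (edgeR adjusted p = 0.140) rested on WT replicate 3 and was -0.11 without it. Leaving out WT replicate 1 or 2 instead gave -1.07 and -1.06, and Tgif1 was then called.

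Genes that TGF-beta is known to move were read from lists written from general knowledge. Of 13 genes that it raises, 11 were tested, of which 4 were called higher and 3 lower, with a median log2 fold change of -0.27. Over all genes tested 11.9% were called higher and 12.5% lower. Without WT replicate 3 there were 5 higher and 3 lower of 12 tested, and the median turned to 0.44. Tgfbi, a matrix protein, rose from 0.939 ± 0.414 to 8.20 ± 0.0759 CPM (log2 fold change 3.13). The 4 myeloid markers given below were also called higher, and the part of such cells in the rise of Tgfbi was not tested. Cdkn1a, a cell cycle inhibitor, rose from 8.18 ± 5.91 to 58.0 ± 3.19 CPM (2.83) and Runx3, a transcription factor of effector T cells, from 45.4 ± 8.17 to 171 ± 5.84 CPM (1.91). Cdkn2b, the last of the higher genes, was under 5 CPM.

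Itgae (CD103), an integrin of tissue T cells, was at 113, 110 and 308 CPM in WT and at 52.4, 49.6 and 56.7 CPM in KO samples. WT replicate 3 was far above the rest, and the log2 fold change was -1.74 (edgeR adjusted p = 0.00919) with it and -1.08 without it, called in both. Id3, an inhibitor of E proteins, fell from 73.4 ± 18.4 to 13.9 ± 1.43 CPM (log2 fold change -2.40). Ldlrad4, described above, and Pmepa1 are also genes that TGF-beta raises. The list thus moved in both directions.

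Of 9 T cell genes that TGF-beta lowers, 7 were called higher and 0 lower, with a median log2 fold change of 2.29. Among all genes tested 11.9% were called higher. No member of the list fell at an unadjusted p under 0.05 in edgeR either, and DESeq2 called 8 higher and 0 lower, as did edgeR without WT replicate 3. Gzmb, a granzyme of killer cells, rose from 20.3 ± 14.2 to 440.5 ± 4.83 CPM (log2 fold change 4.44). Ifng, the Th1 cytokine, rose from 3.65 ± 0.952 to 84.0 ± 1.04 CPM (4.52), and Tbx21, which directs Th1 cells, from 5.51 ± 0.505 to 71.3 ± 2.73 CPM (3.69). Prf1 (2.83), Eomes (2.29), Fasl (1.90) and Gata3 (0.78) also rose on the log2 scale, and Il2 and Myc were not called. The study showed Th1 and Th2 genes as differing on these same samples, so these rises are not independent evidence. By flow cytometry it also found more KO Tregs positive for Th1 and Th2 proteins. In heterozygous females free of inflammation it found most Treg and Th genes near equal in WT and Zfp335-deficient Tregs. The study read the change of these genes as secondary to inflammation, which was not tested here. In the heterozygous females it still found fewer effector Tregs positive for ICOS, CXCR3 or Nrp1.

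**Figure D4:**
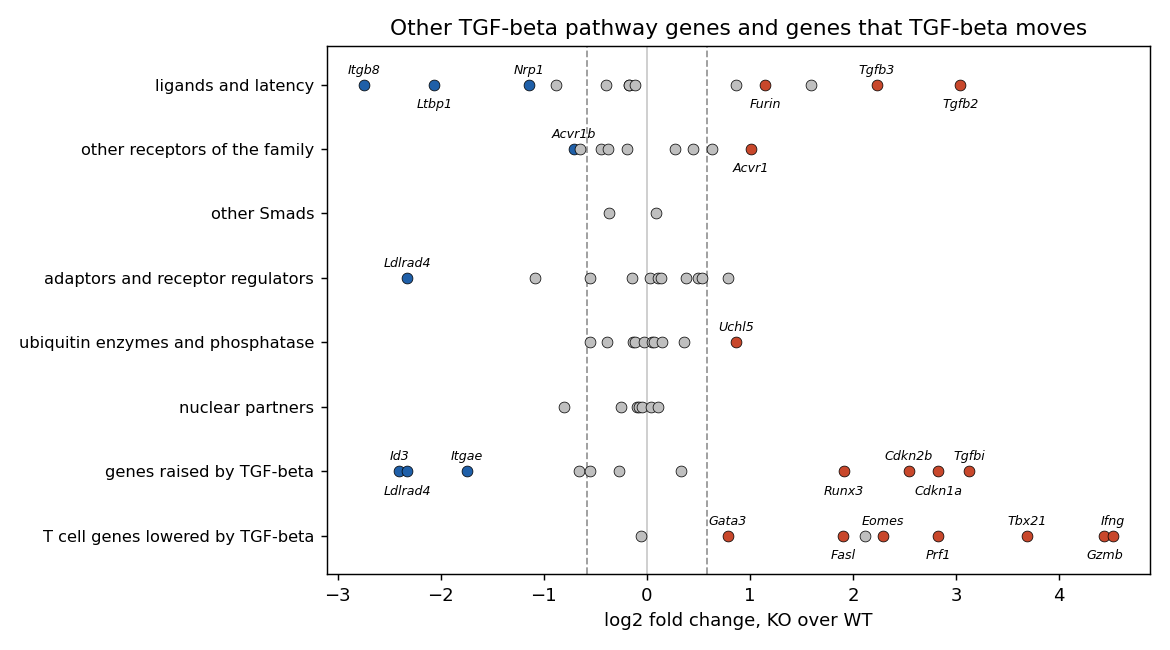
Log2 fold change in KO over WT Tregs of the other pathway genes, by role, and of the 2 lists of genes that TGF-beta moves. Each point is 1 gene, red where called higher, blue where called lower and gray where not called, and dashed lines mark a fold of 1.5. Called genes are named, with Itgb8 at -2.74 farthest to the left and Ifng at 4.52 farthest to the right.

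Facts of the libraries bear on these values. The 6 samples held 32032631 to 40728419 counts, so 3 counts corresponded to at most 0.0913 CPM, and every one of the 10 genes lay far above that. Zfp335 itself fell from 99.4 ± 4.50 to 38.3 ± 1.66 CPM (log2 fold change -1.37). The Treg markers Foxp3, Il2ra, Ctla4 and Ikzf2 were each above 317 CPM in every sample, and Foxp3 and Ikzf2 were called lower in KO Tregs. Foxp3 went from -0.88 to -0.57 on the log2 scale without WT replicate 3 and lost its call, as it did with glmTreat (adjusted p = 0.203). The study listed Foxp3 and Ikzf2 RNA as lower on these same samples. It found Foxp3 protein unchanged in KO mice of this age. WT replicate 3 stood apart from the other WT samples, with summed Treg markers at 4059 CPM beside 2858 and 2817 and summed markers of proliferation at 386 CPM beside 883 and 868. In KO samples the Treg sum was 2215 to 2253 CPM and the proliferation sum 2561 to 2693 CPM, with all 4 proliferation genes called higher. The 4 myeloid markers Lyz2, Csf1r, Itgam and Adgre1 summed to 8.50 to 19.6 CPM in WT and 38.7 to 43.7 CPM in KO samples, with none at 0, and were called higher. The call of Lyz2 was lost when any 1 sample but WT replicate 2 was left out (log2 fold change 0.92, and 0.55 without WT replicate 3), and that of Adgre1 without KO replicate 1 or 3. The NK markers summed to 1.71 to 2.58 CPM in WT and 3.39 to 5.05 CPM in KO samples, without overlap. Those of stroma and endothelium summed to 194 to 208 and 137 to 146 CPM, of which Pecam1, not called, made up most. Col1a1, Col1a2 and Cdh5 were each under 5 CPM in every sample, and of these Col1a2 was called lower (log2 fold change -2.07). B cell markers summed to 3.66 to 7.77 and 5.12 to 6.79 CPM and CD8 T cell markers to 9.32 to 13.2 and 12.0 to 12.7 CPM, with overlap in both. Klrb1c of the NK markers and Cd8a of the CD8 T cell markers were called higher, and each lost its call when certain single samples were left out. The part of proliferating or other cells in the changes of the 10 genes and of the other listed genes was not tested.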

How the data were processed

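The data were bulk RNA-Seq of sorted Tregs, 3 samples per genotype. The authors deposited 1 table of raw counts per gene. Per the study's methods and the submitters' processing notes, reads were filtered with SOAPnuke, aligned to mm10 with HISAT2, quantified with StringTie and tested by the authors with DESeq2. The annotation, the use of strand and how whole counts were obtained are not given in the sources used here. No gene summed to under 60 counts across the 6 samples, so the table had been filtered before deposition, and 0 columns of samples were left unused.

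Counts were tested with R 4.3.3 and edgeR 4.0.16 (filterByExpr with a minimum count of 10, TMM factors of 0.98 to 1.037, glmQLFit and glmQLFTest, no covariate, two-sided, Benjamini-Hochberg adjustment over 13594 genes), and a gene was called at the study's cutoffs, a fold above 1.5, p under 0.05 and adjusted p under 0.1. On simulated data, edgeR at these cutoffs recovered 60.5% of 200 changed genes, some of them changed by exactly 1.5-fold, which lies on the cutoff. A gene that was not called may thus still have changed. Of the calls on simulated data 8.3% fell on unchanged genes. The simulation changed only 200 of 13594 genes, whereas 24.4% were called here. It also gave both genotypes the same spread per gene, although WT samples varied more than KO samples. The 8.3% is therefore not an error share of the calls reported here. CPM used TMM-scaled library totals. Lengths came from GENCODE M21, and positions and promoters from RefSeq of GRCm38.p6. Counting error alone sets the limit of 3 counts, and PCR copies are not independent molecules. No 2 replicates of a genotype agreed within sampling noise.

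The members and lists were chosen with earlier results of these data known. The text names all 10 genes, and of the other lists every called gene with a mean of at least 5 CPM in 1 genotype, at most 5 per role and direction, with Tgfb1, Tgfb3, Smad5, Smad6, Tgif1, Itgae, Pmepa1 and Ldlrad4 whatever their call. Lrrc32, Smad1, Hdac1 and the genes named under 5 CPM or as not called were added after their values were seen. Alternatives were DESeq2 1.42.0, other scalings, filters and cutoffs, a replicate block, offsets for GC content and length, and leaving out each sample.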

Additional observations from a re-analysis of the deposited data

How the results depend on the processing

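The number of the 10 genes called was 6 in most settings, namely DESeq2, both other scalings, both other filters, the replicate block and the offsets for GC content and length. It was 8 when only an adjusted p under 0.05 was asked, where Tgfbr2 and Smurf2 were added as lower and 38.6% of all genes were called, and 4 with glmTreat, which lost Tgfbr3 and Smad3 and called 12.4% of all genes. Leaving out 1 sample gave 5 to 6, the 5 without WT replicate 3, which lost Tgfbr3. The number of other pathway genes called rose from 10 to 19 with no fold cutoff. Over all genes 3190 were called with the replicate block, 1686 with glmTreat and 5244 with no fold cutoff, beside 3318. Pairing by replicate number was not seen, with deviations of same-numbered samples correlated at 0.058, 0.033 and -0.004. A weaker shared effect could be hidden by the distance of WT replicate 3 from the other WT samples. Of the log2 fold changes of 34 picked genes, that of Smad4 alone reversed its sign, to -0.012 with library totals alone. It was between -0.051 and 0.12 when 1 sample was left out. Listed genes outside the 34 also reversed. Without WT replicate 3, Junb went from -0.66 to 0.14 and Bambi from -1.08 to 0.11, and neither was called. List medians also turned. That of the other pathway genes was 0.015 with the offsets for GC content and length and 0.12 without WT replicate 3, and that of the genes raised by TGF-beta was 0.028 with no filter on low counts, 0.071 without WT replicate 2 and 0.44 without WT replicate 3. No scaling moved the median of all genes by more than 0.1 on the log2 scale.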

Other observations

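By Pearson's correlation of log2 CPM over the 6 samples, the genes most like Tgfbr1 among 9881 genes that averaged 5 CPM or more were Rec8, Nlk, Dguok, Srsf6 and Orai1, and those most like Tgfbr2 were AW549877, Rab5b, Slc50a1, Rasa1 and Mcoln3. The samples form 2 clusters by genotype, which all these genes share, and 46 genes for Tgfbr1 and 85 for Tgfbr2 lay within 0.01 of a perfect correlation. The genes of each set differed in size of change, from -0.17 for Srsf6 to -2.17 for Rec8 on the log2 scale among those most like Tgfbr1.

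The spread within genotypes also differed. The median coefficient of variation over all genes tested was 13.8% in WT and 6.57% in KO samples. Smad7 had 28.4% in WT and 5.67% in KO samples, and Ski 1.55% and 2.31%.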
